A study of Mus musculus with 9 samples.

Results

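Deubiquitinases are proteases that cut ubiquitin, a small protein tag, off other proteins or trim the chains it forms. The ubiquitin-specific proteases (USP) and the ovarian tumour proteases (OTU) are 2 large families among them. The set analysed here holds 48 members of these families, out of 11229 genes in the gene table. They were found by a gene symbol beginning with Usp and a digit or with Otub or Otud. Of these, 40 carry a Usp symbol and 8 an Otub or Otud symbol. Usp18, which removes the ubiquitin-like modifier ISG15 from proteins, was left out of the set. The symbol does not prove the activity in every case. Usp6nl codes for a GTPase-activating protein of membrane traffic, and Usp39 for a splicing factor without protease activity. Members of the families that the table does not list are not analysed here. Those with other symbols, such as Yod1, Otulin and Cyld, are outside the set.

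The livers came from C57BL/6 mice of 8 weeks, with 3 libraries in each of 3 groups and no genetic change in any. Controls had sham surgery. Ischaemia-reperfusion (IR) cuts off and then restores the blood supply of the liver, and ischaemic postconditioning (IPO) interrupts the restored flow again for short periods. The labels give neither how long ischaemia lasted nor when livers were taken. They also do not say whether replicates are separate mice or pools, so p-values reflect only how far these libraries spread, and part of that spread may be technical. The comparison of IR with sham asks which genes differ after the injury, that of IPO with IR which differ when the procedure is added, and that of IPO with sham what remains. The comparisons share libraries, so their values are set side by side and are not independent.

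Removing ubiquitin can rescue a protein from the proteasome, release free ubiquitin for reuse, or end a signal that is carried by a chain. K48-linked chains mostly mark proteins for degradation, and K63-linked chains mostly assemble signalling complexes, such as those that lead to the transcription factor NF-kB. In liver, reperfusion is known to set off oxidative stress and inflammatory signalling, in which such chains are made and removed. RNA levels say nothing of the activity of the enzymes.

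Values are FPKM, in which fragment numbers are divided by transcript length and by library size, so that levels of different genes can be compared. They summed to between 363429 and 387000 FPKM per library, and the depth in reads is unknown. Fold changes are differences of mean log2(FPKM + 0.5), given with their standard error (SE), and they understate the change of low genes. Adjusted p-values are from limma with Benjamini-Hochberg adjustment over the 9649 genes whose mean over the libraries reached 1 FPKM, and a gene is called at an adjusted p under 0.05. Along the first principal component of all tested genes, which held 46.8% of the variance, the IR libraries lay between 29.8 and 43.8 and the IPO libraries between -25.6 and -19.5. Sham libraries 1 and 2 lay at -21.2 and -18.2, and sham library 3 at -2.20, nearest to the IR group. The library descriptions hold a number that is the same in all 3 IPO libraries and found in no other. Another is shared by all 3 IR libraries and sham library 2, and sham libraries 1 and 3 carry still another. The labels do not say what it stands for, and IPO cannot be told apart from its number.

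Of the 48 genes, 42 passed the filter, 35 with a Usp symbol and 7 with an Otub or Otud symbol. The 6 below it were Usp37 (mean 0.853 FPKM), Usp50 (0.690), Usp20 (0.628), Usp54 (0.583), Otub2 (0.437) and Usp49 (0.410). Just above it lay Usp53 at 1.04 FPKM and Usp28 at 1.20. The tested members are expressed at a middling level in these livers, between 1.04 and 14.7 FPKM with a median of 5.59, beside 5.85 over all tested genes. The highest was Otub1, an enzyme specific for K48-linked chains that also blocks certain ubiquitin-conjugating enzymes. It read 14.0, 15.0 and 15.0 FPKM in the sham libraries, 13.4, 16.9 and 14.6 in IR and 15.2, 14.9 and 13.4 in IPO. The 3 groups overlap, and the log2 difference of IR from sham was 0.02 with a 95% interval from -0.25 to 0.29. After it came Usp8 (mean 13.4 FPKM), which acts on receptors at the endosome, Otud6b (13.2), linked to proteasome assembly, and Usp15 (12.3), which acts in TGF-beta signalling. Usp5 (10.5), which takes apart free ubiquitin chains, and Usp7 (10.4), which stabilises p53 and its ligase Mdm2, followed. The neighbours in this order lie closer together than their libraries do.

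**Figure D1:**
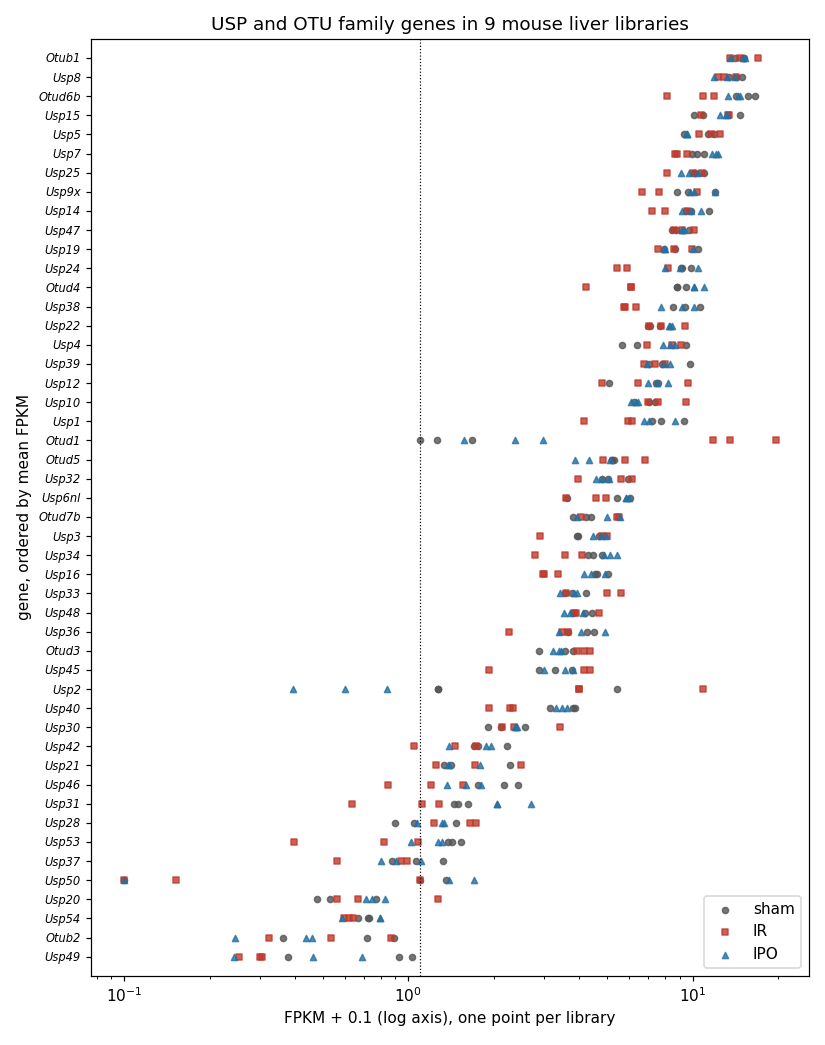
FPKM (log axis) of the 48 USP and OTU genes in each library, ordered by mean over the 9 libraries, with 0.1 added for the log axis and 1 point per library in the colour of its group. The dotted line marks 1 FPKM. Tested members span mean levels from 1.04 to 14.7 FPKM, and Otud1 and Usp2 are the genes whose groups lie farthest apart.

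Between IR and sham, 1 member was called higher and 5 lower. The called higher gene was Otud1, which is 2.38% of the tested members where 3.86% of all tested genes were called higher. The genes called lower were Usp40, Otud4, Usp38, Usp16 and Otud6b, or 11.9% of members beside 7.64% of all tested genes. Between IPO and IR, 7 members were called higher, namely Otud4, Usp31, Usp40, Usp38, Usp16, Usp7 and Usp34. They are 16.7% of members beside 12.0% of all genes. Otud1 and Usp2 were called lower, 4.76% of members beside 10.1%. Between IPO and sham no member was called in either direction by limma, where 0.124% of all genes were called higher and 0.104% lower. There 3 members had an unadjusted p under 0.05, a count that is not read because the share over all genes is not given. The shares of called members lie near those of all genes, so the tested members as a whole did not stand out by the number of calls.

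The typical size of the differences was also close to that of all genes. The median log2 difference of IR from sham was -0.04 over the 42 members and -0.05 over all tested genes, with 25 members below 0 and 17 above. For IPO against IR the medians were 0.06 and 0.02, and for IPO against sham -0.04 and -0.03. In size, regardless of sign, the median member differed by 0.22 on the log2 scale between IR and sham, beside 0.27 over all genes. A difference of at least 2-fold was reached by 2 members in each of the comparisons that include IR and by 1 in IPO against sham. Among all genes 5.25%, 7.43% and 1.49% reached it in IR against sham, IPO against IR and IPO against sham. Among the tested members, Otud1 and Usp2 were the exceptions.

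**Figure D2:**
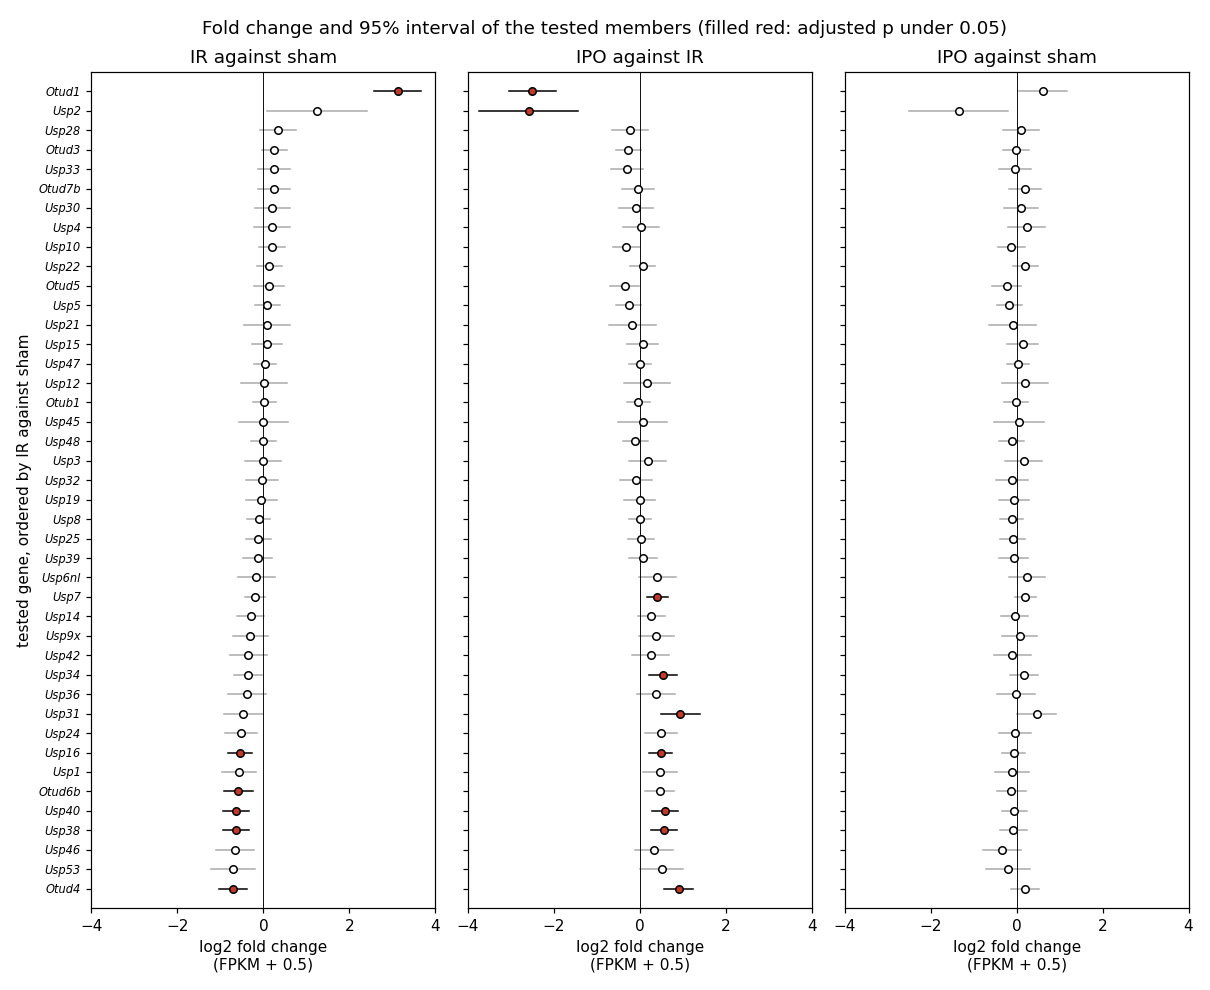
Log2 fold change with its 95% interval for the 42 tested members in IR against sham, IPO against IR and IPO against sham, with called members in red. Otud1 at 3.12 and -2.51 and Usp2 at -2.59 lie apart, and most other members lie within 0.7 of 0.

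Otud1, an OTU enzyme that prefers K63-linked chains and acts in innate immune and stress signalling, had the largest change of the members between IR and sham. Its level was 1.00, 1.16 and 1.58 FPKM in the sham libraries, 11.7, 13.5 and 19.5 in IR and 1.47, 2.88 and 2.28 in IPO. Every IR library lay far above every sham and every IPO library, while sham and IPO overlapped. Mean FPKM was 1.25 ± 0.296 for sham, 14.9 ± 4.12 for IR and 2.21 ± 0.705 for IPO (SD, n = 3 each). IR exceeded sham by 3.12 on the log2 scale (SE 0.25, limma adjusted p = 0.000328), an 8.69-fold difference. IPO lay below IR, with a log2 difference of -2.51 (SE 0.25, limma adjusted p = 0.000496), or 5.69-fold lower. Between IPO and sham the log2 difference was 0.61 with a 95% interval from 0.06 to 1.16 and was not called (limma adjusted p = 0.348). In IPO against IR the call held under all 19 alternative settings, with limma adjusted p from 0.000345 to 0.00313. In IR against sham it held under every alternative that is read. The description number as a term, which rests on 1 sham library there, is not read. By mean level Otud1 was the second lowest of the tested members in sham and the second highest in IR.

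Otud1 (ENSMUSG00000043415.5) is encoded on the plus strand of chromosome 2, from 19657752 to 19660583 in mm10, in a single exon. It was the single-exon gene among the 42 tested members, beside 2.16% single-exon genes among all tested genes with an annotated model. Its promoter is shown because the gene has the largest change of the tested members. The window holds 250 bases before the RefSeq transcription start and 50 after it (GRCm38.p6, chr2:19657481-19657780, plus strand). The capitals mark an E-box, CACGTG, which is the site bound by the clock proteins CLOCK and BMAL1 and by MYC and related factors. It begins 54 bases before the start.
Otud1 promoter: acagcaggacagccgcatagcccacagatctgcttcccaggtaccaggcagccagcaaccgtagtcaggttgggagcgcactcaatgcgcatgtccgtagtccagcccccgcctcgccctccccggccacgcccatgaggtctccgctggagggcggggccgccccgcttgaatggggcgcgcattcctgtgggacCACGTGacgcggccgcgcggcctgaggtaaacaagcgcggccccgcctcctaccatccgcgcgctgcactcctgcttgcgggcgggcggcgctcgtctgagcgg

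Of the 48 members, 37 matched a RefSeq promoter window of this kind, and both strands were searched for 4 motifs. The E-box stood in 7 of the 37 (18.9%), beside 12.2% of the 7437 tested genes with a window and 8.09% of 27025 genes in the whole table. The AP-1 motif TGANTCA, the site of FOS and JUN, stood in 5 (13.5%), beside 6.29% of tested genes and 8.97% of all. Those were Otub2, Usp10, Usp31, Usp38 and Usp50. The cAMP response element TGACGTCA stood in 0 of the 37, where 3.66% of tested genes hold it, and the STAT motif TTCNNNGAA in 1, Usp50, where 8.22% do. Usp2 was among the members searched, and none of the 4 motifs, the E-box included, was found. Its window, chr9:44084670-44084969, lies inside the gene span, which begins at 44067021. Other starts of its isoforms may lie outside what was searched. The members' windows are rich in G and C, with a median of 64.3% beside 60.7% in the tested genes, and such windows favour some motifs over others. The 7 E-box matches are shown with 15 bases to either side, in the direction of the gene and with the E-box in capitals, because they stand in members that went different ways. Otud1 was called higher in IR, Usp16 was called lower there, Usp31 was called higher in IPO than in IR, and Otud3, Usp4, Usp32 and Usp6nl were not called in any comparison.
Otud1, chr2:19657662-19657697, plus strand: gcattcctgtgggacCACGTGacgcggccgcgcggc
Otud3, chr4:138913981-138914016, minus strand: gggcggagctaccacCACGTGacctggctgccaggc
Usp16, chr16:87454893-87454928, plus strand: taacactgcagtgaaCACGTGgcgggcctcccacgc
Usp31, chr7:121707444-121707479, minus strand: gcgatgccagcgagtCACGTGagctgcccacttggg
Usp32, chr11:85139938-85139973, minus strand: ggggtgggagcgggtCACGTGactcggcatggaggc
Usp4, chr9:108347809-108347844, plus strand: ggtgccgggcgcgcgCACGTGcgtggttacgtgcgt
Usp6nl, chr2:6322597-6322632, plus strand: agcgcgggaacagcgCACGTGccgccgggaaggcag
No E-box match shared bases with another of the motifs. A match is a description of the letters in the window and was not linked to binding in these livers.

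Usp2 has isoforms under clock control and acts on clock proteins, on Mdm2 and on cyclin D1. Its level was 1.17, 1.17 and 5.32 FPKM in the sham libraries, 3.88, 3.88 and 10.8 in IR and 0.293, 0.740 and 0.501 in IPO. All IPO libraries lay below all sham and all IR libraries, and sham library 3, the library nearest to IR on the first principal component, overlapped the IR group. IPO lay below IR, with a log2 difference of -2.59 (SE 0.51, limma adjusted p = 0.00864), or 6.03-fold lower, and the call held under all 18 alternatives that kept the gene. Between IR and sham the log2 difference was 1.24 (SE 0.51) and was not called (limma adjusted p = 0.142). Without sham library 3 it was 1.84 and was called (limma adjusted p = 0.0210), so that library decides the call. Between IPO and sham it was -1.35 with a 95% interval from -2.50 to -0.19 (limma adjusted p = 0.327). Exons of Usp2 (chromosome 9, 44067021 to 44095627, plus strand) share 4.15% of their bases with genes on the other strand, Gm49380 and Gm39325. No label says whether reads were counted by strand, so a share of such values may belong to the partner.

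Clock genes are shown beside Usp2 because the gene is clock controlled. Of 16 tested clock genes, 4 were called higher in IR than in sham and 0 lower, with a median log2 difference of 0.66, and 8 were called lower in IPO than in IR and 0 higher, with a median of -1.01. Among all tested genes 3.86% were called higher in IR than in sham and 10.1% lower in IPO than in IR. Nr1d1, which codes for the repressor REV-ERB alpha, rose by 1.99 on the log2 scale in IR (SE 0.16, limma adjusted p = 0.000434) and was lower in IPO than in IR (log2 difference -1.33, limma adjusted p = 0.00118). Per1, a core clock repressor and a substrate of Usp2, read 5.92, 6.53 and 7.68 FPKM in sham, 14.8, 11.5 and 10.6 in IR and 6.82, 6.33 and 4.77 in IPO. Its IR libraries did not overlap the other groups. In sham library 3, where Usp2 was high, Dbp was also high, at 8.35 FPKM beside 0.811 and 1.00 in the other sham libraries. Nr1d1 was not high there, and its value lay between those of the other sham libraries, 11.3 and 8.57 FPKM. Among the IR libraries Usp2 was highest in library 3. Dbp was highest in IR library 1, at 4.27 FPKM beside 1.20 and 2.80 in IR libraries 2 and 3. Nr1d1 was lowest in IR library 3, at 34.4 FPKM. Dbp and Nr1d1 thus did not follow Usp2 within the IR group. Dbp is an output gene of the clock with a strong daily rhythm. The hour at which livers were taken is not given, and its part in the Usp2 values was not tested.

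**Figure D3:**
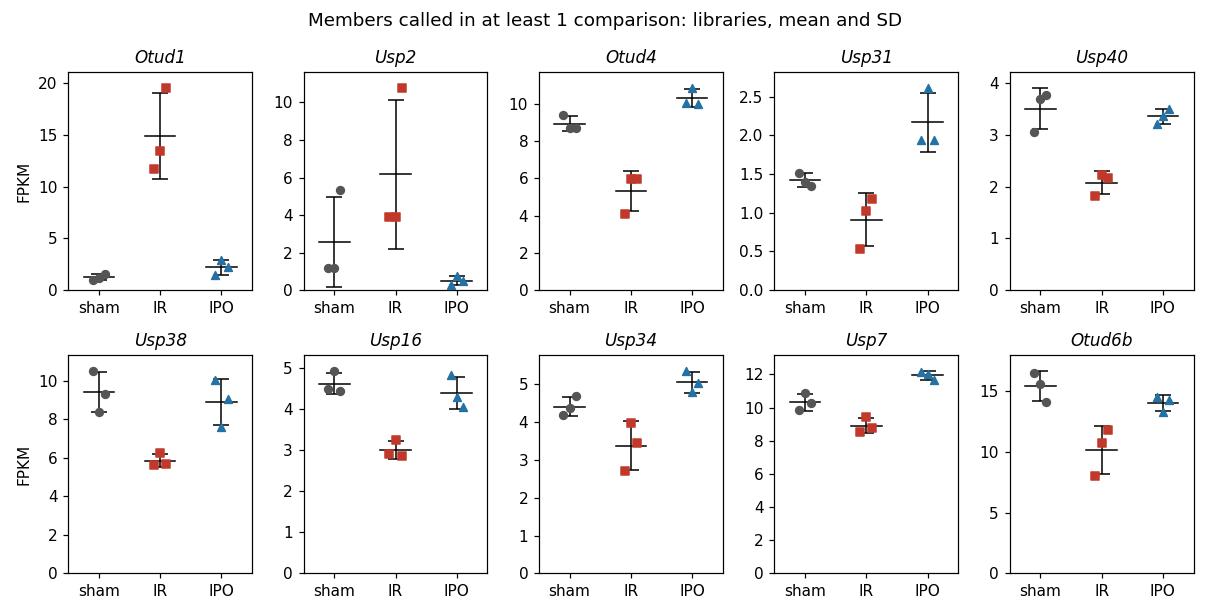
FPKM in each library (points) with lines for the group mean and SD (n = 3) for the members called in a comparison, by group. By group mean Otud1 and Usp2 are highest in IR, and the other 8 members shown are lowest there. The IR libraries of Otud1 do not overlap the other groups, and those of Usp2 overlap sham.

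Members of inflammatory and growth factor signalling were 11 among those tested, and beside Otud1 they held Otud4, Usp31 and Usp34 among the called genes. Otud4 binds RNA and supports repair of alkylated DNA and innate signalling. It read 9.41, 8.68 and 8.72 FPKM in sham, 4.10, 5.97 and 5.95 in IR and 10.1, 10.8 and 10.0 in IPO. The 3 groups do not overlap, with IR lowest and IPO highest. The log2 difference of IR from sham was -0.71 (SE 0.15, limma adjusted p = 0.0195), and that of IPO from IR was 0.90 (SE 0.15, limma adjusted p = 0.00423). The first was lost without sham library 1 (adjusted p = 0.0803) or sham library 2 (0.0661), and the second held under all 19 alternatives.

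Usp31, reported to restrain NF-kB signalling, was near the detection filter. Its level was 1.52, 1.40 and 1.35 FPKM in sham, 0.533, 1.02 and 1.18 in IR and 1.95, 2.61 and 1.94 in IPO. Here too the 3 groups do not overlap, in the same order. IPO exceeded IR by 0.94 on the log2 scale (SE 0.20, limma adjusted p = 0.0120), which held under all 18 alternatives. The log2 differences of IR from sham, -0.47 (limma adjusted p = 0.151), and of IPO from sham, 0.46 (0.395), were not called. Usp34, which stabilises axin in Wnt signalling, read 4.17, 4.37 and 4.69 FPKM in sham, 2.69, 3.98 and 3.45 in IR and 5.34, 4.78 and 5.03 in IPO. IPO exceeded IR by 0.53 (SE 0.15, limma adjusted p = 0.0297). That call was lost in 6 of 18 alternatives, among them those without IR library 1 (adjusted p = 0.0536) and without IPO library 1 (0.0956), 2 (0.0668) or 3 (0.0848). Of the exon bases of Usp34, 11.6% lie opposite exons of Ahsa2.

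The other 7 tested members of this group were not called in any comparison. Otud3, an OTU enzyme, had IR libraries above all sham libraries, at 4.25, 3.81 and 4.06 FPKM beside 3.47, 2.79 and 3.70, with a log2 difference of 0.26 (limma adjusted p = 0.222). Otud5, which acts on the signalling adaptor TRAF3, had a log2 difference of -0.36 between IPO and IR (limma adjusted p = 0.117), beside -0.19 for an assembled locus over most of the gene. The close relatives Usp4 and Usp15 had log2 differences of 0.20 and 0.08 between IR and sham, and of 0.03 and 0.06 between IPO and IR.

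Among members linked to p53 and the clock, Usp7 was called beside Usp2. Usp7 read 9.86, 10.9 and 10.3 FPKM in sham, 8.56, 9.43 and 8.75 in IR and 12.1, 12.0 and 11.7 in IPO. The groups do not overlap, and the steps between them are small. IPO exceeded IR by 0.40 on the log2 scale (SE 0.11, limma adjusted p = 0.0259), and the log2 difference of IR from sham was -0.20 (limma adjusted p = 0.232). The first call was lost without IR library 3 (adjusted p = 0.0512) and without IPO library 1 (0.0813), 2 (0.0799) or 3 (0.0711). Usp47, its nearest relative, had a log2 difference of -0.01 between IPO and IR. The difference between the relatives was not tested. Usp10, which stabilises p53 in the cytoplasm and binds the stress granule proteins G3bp1 and G3bp2, had a log2 difference of -0.32 between IPO and IR (limma adjusted p = 0.123). An assembled locus over 98.9% of its span gave 0.40, in the opposite direction, so no direction is read for this gene.

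Of 12 tested members that act on histones, chromatin, DNA repair or splicing, Usp16 was called. Usp16 removes ubiquitin from histone H2A. Its level was 4.50, 4.92 and 4.45 FPKM in sham, 2.90, 3.25 and 2.87 in IR and 4.82, 4.30 and 4.06 in IPO. All IR libraries lay below the others, and sham and IPO overlapped. The log2 difference of IR from sham was -0.55 (SE 0.12, limma adjusted p = 0.0233) and that of IPO from IR 0.48 (SE 0.12, limma adjusted p = 0.0223). The first was lost without sham library 1 (adjusted p = 0.0778) or 2 (0.0903), and the second without IPO library 1 (0.0852), 2 (0.0634) or 3 (0.0502). Its relative Usp45, which acts in DNA repair, had log2 differences of -0.00 and 0.06 in those comparisons. Usp28, which stabilises MYC, had a log2 difference of 0.34 between IR and sham (limma adjusted p = 0.251) at levels near the filter.

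The 5 tested members of other or little studied function all had lower means in IR than in sham and higher means in IPO than in IR. Their median log2 differences were -0.64 and 0.50, beside -0.05 and 0.02 over all tested genes. Usp38 and Usp40 were called in both comparisons and Otud6b in the first, and Usp24 and Usp53 in neither. Over all tested genes 7.64% were called lower in IR than in sham and 12.0% higher in IPO than in IR. This grouping is a remainder and not a pathway, and it was chosen with earlier results of these data known. Nothing particular to the group is read from its shared direction.

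Usp38 read 10.5, 8.41 and 9.34 FPKM in sham, 5.65, 6.23 and 5.70 in IR and 10.0, 7.62 and 9.06 in IPO. Its IR libraries lay below all others, and sham and IPO overlapped. The log2 difference of IR from sham was -0.64 (SE 0.14, limma adjusted p = 0.0216), lost without sham library 1 (adjusted p = 0.0893). That of IPO from IR was 0.56 (SE 0.14, limma adjusted p = 0.0206), lost without IPO library 1 (0.0793) or 3 (0.0700). Of its exon bases, 20.5% lie opposite Gm9725, an antisense gene, and the reads of the pair may not have been told apart.

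Usp40 read 3.06, 3.70 and 3.77 FPKM in sham, 1.83, 2.23 and 2.18 in IR and 3.21, 3.36 and 3.51 in IPO. The same order held, with IR below all other libraries. IR differed from sham by -0.64 on the log2 scale (SE 0.13, limma adjusted p = 0.0192), lost without sham library 2 (adjusted p = 0.0775). That of IPO from IR was 0.59 (SE 0.13, limma adjusted p = 0.0151), lost without IPO library 3 (0.0593).

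Otud6b read 16.5, 15.6 and 14.1 FPKM in sham, 8.01, 10.8 and 11.8 in IR and 14.6, 13.3 and 14.3 in IPO. IR again lay below all other libraries. The log2 difference of IR from sham was -0.59 (SE 0.15, limma adjusted p = 0.0386), the weakest of these calls. It was lost with a replicate block (adjusted p = 0.0769) and without sham library 1 (0.129) or 2 (0.114). The call was also lost without IR library 1 (0.0599) or 2 (0.0636), and without IPO library 1 (0.0581), 2 (0.0605) or 3 (0.0665). Leaving out an IPO library kept this difference at -0.59 and changed only its test. Its log2 difference between IPO and IR was 0.46 (limma adjusted p = 0.0553), and it was called without IR library 3 (adjusted p = 0.0317). Usp53, a tight junction protein of liver and inner ear, had the difference of IR from sham closest in size to that of Otud4, at -0.71 on the log2 scale, but was not called (limma adjusted p = 0.0715). It was called without IR library 2 (log2 difference -0.90, adjusted p = 0.0452).

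The calls of the smaller changes depended on the libraries kept. When each library was left out in turn, the 5 lower calls of IR against sham fell to 1 without sham library 1 and to 1 without sham library 2. With the description number as a term, the number of sham libraries 1 and 3 was fitted apart, which set IR against sham library 2 alone. The log2 differences of these 5 members then ran from -0.71 for Usp40 to -0.49 for Usp38, and no calls are read from 1 sham library. With only the sham and IR libraries in the fit the differences stayed the same. The 5 calls then fell to 0, with limma adjusted p from 0.0577 for Usp38 to 0.101 for Otud6b. Those of IPO above IR fell from 7 to 3, 4 and 2 without IPO library 1, 2 and 3. The calls of Otud1 in both comparisons, and those of Usp2, Otud4 and Usp31 in IPO against IR, were kept whichever library was left out.

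Of the 9 tested members of membrane and organelle traffic, 0 were called in any comparison by limma. An unadjusted p under 0.05 was found for 1 between IR and sham and for 0 in the other comparisons, and the share over all genes is not given. Usp5 and Usp14, which serve ubiquitin recycling and the proteasome, were not called either. Usp14 trims chains on proteins docked at the proteasome. Usp9x, which acts on many proteins of cell polarity and survival, had log2 differences of -0.31 and 0.38 in IR against sham and IPO against IR. Usp46, which works with the cofactor Wdr48, read 2.32, 2.07 and 1.66 FPKM in sham, 0.746, 1.10 and 1.46 in IR and 1.27, 1.71 and 1.50 in IPO. Its IR libraries lay below all sham libraries. The log2 difference was -0.67 (limma adjusted p = 0.0574), and it was called without sham library 3 (adjusted p = 0.0474) or IR library 3 (0.0298). Its close relative Usp12 had 0.02 in the same comparison, and the difference between them was not tested. Usp33, an enzyme of the endoplasmic reticulum and Golgi, had a log2 difference of -0.30 between IPO and IR, and without IR library 3 it was -0.47 and was called (limma adjusted p = 0.0472).

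Counting libraries that do not overlap, 13 members had all IR libraries below all sham libraries (31.0%, beside 19.3% of all tested genes) and 2 had them above (4.76%, beside 13.2%). In IPO against IR 10 members lay above without overlap (23.8%, beside 22.2%) and 5 below (11.9%, beside 20.4%). In IPO against sham 5 lay above (11.9%, beside 9.59%) and 3 below (7.14%, beside 13.2%). IR library 1 had the lowest value of 23 of the 42 members, where it was the lowest library for 30.7% of all tested genes. The summed FPKM of all 48 members, tested or not, ran from 237 in that library to 281 in sham library 3. Against the sham mean, the log2 difference of the median member was -0.28 in IR library 1, beside -0.14 over all genes, and it was 0.00 and -0.09 in IR libraries 2 and 3. Without IR library 1, 4 members were called lower in IR than in sham and 6 higher in IPO than in IR.

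Transcripts of the tested members are long, with a median longest annotated transcript of 4732 bases beside 3218 over all tested genes, and a range from 1668 to 12200. Across the 42 members, the Spearman correlation of that length with the log2 difference was -0.37 for IR against sham, 0.47 for IPO against IR and 0.30 for IPO against sham, beside -0.09, 0.15 and 0.12 over 9636 genes. Genes are not independent replicates and the points share their libraries. Among the 21 members with the longer transcripts, 18 lay below 0 in IR against sham, with a median log2 difference of -0.20, and among the 21 shorter ones 7 did, with a median of 0.09. In IPO against IR the medians were 0.33 and -0.04. Set against the sham mean, library by library, this correlation was -0.41, -0.16 and -0.30 in the IR libraries and 0.26, 0.34 and 0.23 in the IPO libraries, but it also ran from -0.29 to 0.27 among the sham libraries.

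**Figure D4:**
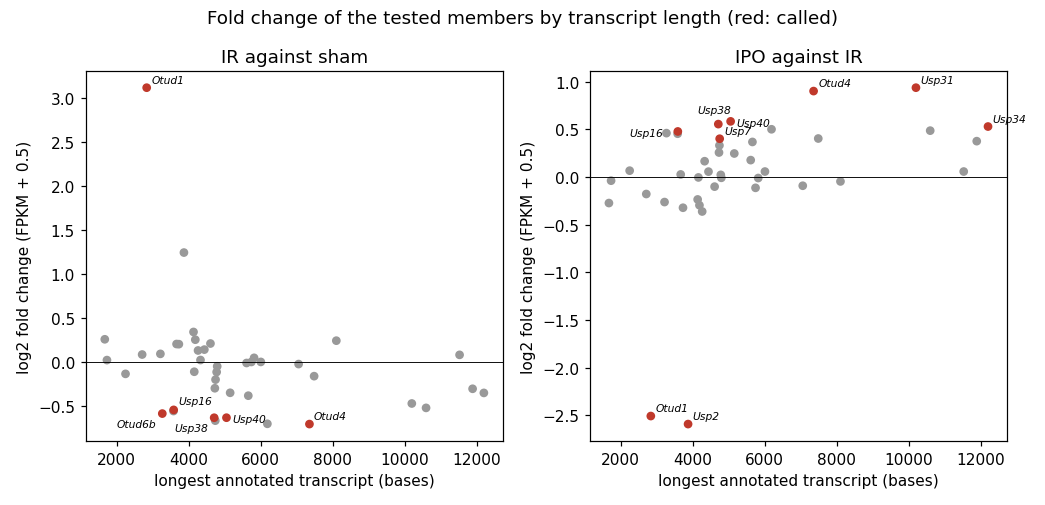
Log2 fold change of the 42 tested members against the length of the longest annotated transcript in bases, for IR against sham (left) and IPO against IR (right), with called members in red. The Spearman correlation was -0.37 on the left and 0.47 on the right, and the members called lower in IR span short and long transcripts.

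In bulk tissue fewer cells of a type and less RNA per cell cannot be told apart. All 8 hepatocyte markers were detected, and their summed FPKM ran from 16709 to 24670 in sham, 22009 to 29719 in IR and 21939 to 23937 in IPO. The sum of 7 Kupffer cell markers ran from 79.3 to 107 FPKM in sham, 90.6 to 354 in IR and 97.2 to 117 in IPO, with the top value in IR library 3. For 6 of 7 neutrophil markers in the table it ran from 64.4 to 91.9 in sham, 11.3 to 73.9 in IR and 48.3 to 129 in IPO, with the lowest in IR library 1. The 7 sinusoidal endothelial markers summed to 49.1 to 83.3, 56.2 to 87.9 and 70.1 to 81.0 FPKM, and the 7 stellate cell markers to 112 to 131, 98.1 to 182 and 122 to 146. For 4 of 6 cholangiocyte markers in the table the sums were 19.0 to 25.2, 29.2 to 40.0 and 24.4 to 34.0. No marker in the table was at 0 in every library. Single markers moved within these sums. Between IR and sham, Kdr and Stab2 of the endothelial markers were called higher (log2 differences 1.42 and 0.74, limma adjusted p = 0.00279 and 0.0178) and Lyve1 lower (-1.31, 0.0481). Kdr read 1.98 to 3.08 FPKM in sham and 6.78 to 8.70 in IR, and every IR library lay below every sham library for Lyve1. The stellate markers Colec11 and Reln were called higher in IR (log2 differences 0.53 and 0.54, limma adjusted p = 0.0438 and 0.0349), and the neutrophil marker Mmp8 lower (-1.33, 0.0442). In IPO against IR, Lyve1, Mmp8 and Cxcr2 were called higher and Kdr, Colec11, Sox9 and Pck1 lower. The part of cell makeup in the members' values, Otud1 included, was not tested.

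Elsewhere in the ubiquitin system, Ubb, a polyubiquitin gene that supplies free ubiquitin, rose from a mean of 200 FPKM in sham to 308 in IR (log2 difference 0.62, SE 0.12, limma adjusted p = 0.0159). Between IPO and IR its log2 difference was -0.36 and was not called (limma adjusted p = 0.0648).

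A further list holds other deubiquitinase families and also OTU and USP enzymes with other symbols, namely Tnfaip3, Otulin, Yod1, Vcpip1, Zranb1 and Cyld. Of its 21 tested genes, 1 was called lower in IR than in sham, and in IPO against IR 3 were called higher and 1 lower. The first was Yod1, an OTU enzyme of the endoplasmic reticulum pathway whose symbol falls outside the rule, with a log2 difference of -1.06 (limma adjusted p = 0.0198). It was also among those higher in IPO, by 1.32 (limma adjusted p = 0.00481). Yod1 thus moved opposite to Otud1. For the lists given here, the shares over all tested genes are 3.86% higher and 7.64% lower in IR than in sham, and 12.0% higher and 10.1% lower in IPO than in IR. Nothing particular to a list is read from its counts. Of 31 tested E2 conjugating enzymes 1 was called higher in IR than in sham, and 3 were called lower in IPO than in IR. Of 12 tested deubiquitinase cofactors, 1 was called lower in IR, the Usp10 partner G3bp2 (log2 difference -0.69, limma adjusted p = 0.0459), and 5 were called higher and 1 lower in IPO than in IR. G3bp1 and G3bp2 were 2 of those 5, with log2 differences of 0.83 (limma adjusted p = 0.00316) and 1.04 (0.00605). Of 26 E3 ligases and partners, 4 were called lower and 1 higher in IR, and 5 higher and 0 lower in IPO than in IR. Trp53, which codes for p53, was in both, with log2 differences of -0.91 (limma adjusted p = 0.0168) and 0.93 (0.00845). So were the HECT ligases Nedd4l, at -0.86 (limma adjusted p = 0.0283) and 1.44 (0.00216), and Ube3a, at -1.26 (0.0306) and 1.15 (0.0258). Between IPO and sham 0 genes of these lists, or of the clock list, were called by limma. At an unadjusted p under 0.05 there were 2 in the list of further deubiquitinases, 1 in E2 enzymes, 2 in cofactors, 3 in E3 ligases and partners, and 5 in clock genes. The share of all tested genes at that threshold is not given here, so nothing is read from these counts.

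The authors' deposited tables of differing genes, which list genes at a p-value of up to 0.05 and a fold of at least 1.5, hold 5 of these members. In the authors' deposited table for IR against sham, Otud1 has a log2 fold change of 2.80 with a q-value of 0.0828, Otud4 -0.66 with 0.156 and Usp38 -0.60 with 0.125. In the authors' deposited table for IPO against IR, Otud4 has 0.85 with a q-value of 0.0599, Usp31 0.74 with 0.0960, Otud1 -2.30 with 0.0341 and Usp2 -2.12 with 0.0723. No member is in the authors' deposited table for IPO against sham. Those values rest on log2(FPKM + 1) and on a test of their own that no label describes.

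A second deposited table gives FPKM for assembled loci without gene names, and 29 of them lie on the same strand within or over 28 members. For 21 that cover at least 80% of the gene, the log2 difference of the locus was close to that of the gene, with a median gap of 0.03 for IR against sham. The widest gap between IPO and IR was that of Usp10. The gene is given as 6.13, 7.25 and 6.94 FPKM in sham, 9.39, 7.47 and 6.87 in IR and 5.99, 6.23 and 6.31 in IPO. The locus over 98.9% of its span (chromosome 8, 119910857 to 119957555) is given as 13.6, 11.7 and 11.5 in sham, 11.9, 10.3 and 10.6 in IR and 14.6, 14.7 and 14.2 in IPO. In the gene table all IPO libraries lay below all IR libraries (log2 difference -0.32), and in the locus table all lay above (0.40). In that comparison the gap of 0.72 was the largest of the 21, followed by 0.21 for Usp49. Between IPO and sham the largest gap was that of Usp49, at 0.41, with a log2 difference of -0.43 for the gene and -0.02 for the locus. Otud5 changed sign there, with -0.23 for the gene and 0.06 for the locus, as did Usp10, with -0.12 and 0.24. The locus values were not tested, and which reads make up the locus is not given, so the direction for Usp10 depends on the table.

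**Figure D5:**
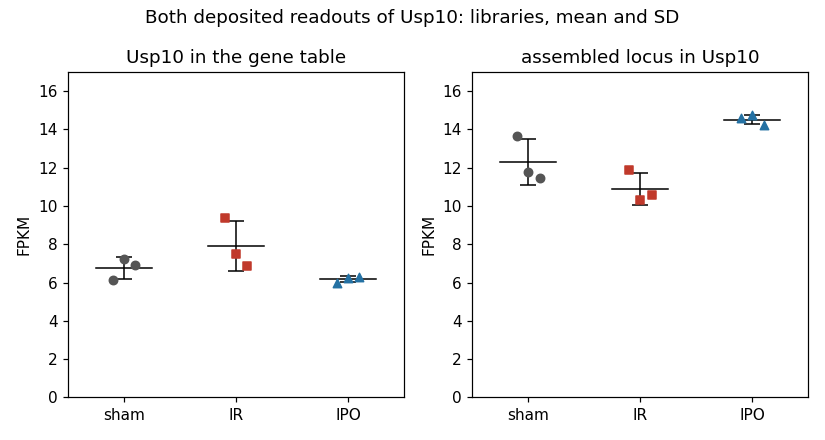
FPKM of Usp10 in each library from the gene table (left) and of the assembled locus that covers 98.9% of its span (right), with lines for the group mean and SD (n = 3). IPO lies below IR on the left and above it on the right, without overlap in either.

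Usp49, below the filter, shares 51.2% of its exon bases with the same-strand gene Gm20517, so reads of the 2 could be split between them. Usp50 is listed at 0 in sham library 1, IR library 2 and IPO library 1, and at 1.00 to 1.60 FPKM in all others but IR library 3, at 0.0526. Its span overlaps that of Usp8, the second highest member, on the other strand. Both are left as uncertain.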

How the data were processed

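RNA-seq values of 9 mouse liver libraries were used, 3 each from sham surgery, IR and IPO. Per the labels' protocols, frozen liver was extracted with Trizol and libraries were made with a stranded KAPA kit. The genome build was mm10, per the submitters' processing notes, and no aligner, annotation, counting program or strand setting is named there. FPKM were computed by the authors and deposited for each library, for genes and for assembled loci. The authors' deposited lists of differing genes give log2 values (means of log2(FPKM + 1) and their difference) and a fold, the ratio made from that difference. How the authors obtained the deposited p-value and q-value is not given. A locus's span in bases is also given, per the file headers. The FPKM hold no recoverable read steps: among 370 low genes the commonest 0.01 step of the log2 ratio between libraries held 1.89% of the ratios. The depth, and with it counting error, is therefore unknown.

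Members were found by symbol. Values were transformed to log2(FPKM + 0.5), and the 9649 genes whose mean over 9 libraries reached 1 FPKM entered a single limma fit of 3 group means with a variance trend (limma 3.58.1, R 4.3.3, and version 1.17.8 of data.table), with 6 residual and 3.56 prior degrees of freedom. Tests were two-sided, and adjustment was by Benjamini-Hochberg over all tested genes within a comparison. The members, roles and gene lists were chosen with earlier results of these data known. The text names every called member, those with the largest uncalled differences, the most abundant members and close relatives, 29 genes in all, and others where a feature of theirs is described. On simulated data for IR against sham with 9649 genes, 68% of 100 genes changed 2-fold and 95% of 100 changed 4-fold were called, with 4 false calls. Fewer genes were changed there than were called in the data, where 372 were higher and 737 lower. No change under 2-fold was simulated, the size of every member call except those of Otud1 and Usp2. Transcript lengths and exon overlaps are from GENCODE M21, which held all 48 identifiers, and promoters from RefSeq (GRCm38.p6). Other values were computed with Python 3.11.15, pandas 2.3.3 and numpy 2.4.6. The alternatives changed 1 choice at a time: the pseudocount (0.1 or 1), the filter (none, or a mean of 5 FPKM), the scaling (median of ratios, or quantile), a block for the replicate number, robust variance estimation, a term for the number in the descriptions, the groups in the fit (only those compared), and the libraries (without each in turn). Some genes of the lists are not reported here.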

Additional observations from a re-analysis of the deposited data

How the results depend on the processing

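The depth is unknown, and with 3 libraries a group the precision is set by the spread between libraries. Of 278 values of called members under alternative settings, 236 stayed called in the same direction and 42 did not pass, and 0 changed sign. Of 1339 values of named members that were not called, 10 passed. With a mean of at least 5 FPKM required, which tests fewer members, 3 members were called lower in IR than in sham, 3 higher and 1 lower in IPO than in IR. With only the sham and IR libraries 0 were called lower in IR than in sham. That fit left the differences unchanged and altered only their tests. With the description number as a term, IR was set against sham library 2 alone. That setting cannot separate the number from the group, and no conclusion is drawn from it, although the totals above include it. Leaving out 1 library gave 1 to 2 members higher and 1 to 6 lower in IR than in sham, and 2 to 8 higher and 2 to 3 lower in IPO than in IR. Between IPO and sham the count was 0 under every alternative run. The replicate numbers recur in each group but share only a number: over 9 same-numbered pairs the correlation of deviations ran from -0.137 to 0.0653. With a replicate block 1 member was called higher and 3 lower in IR than in sham, and 5 higher and 2 lower in IPO than in IR. Other scaling moved the median of all genes by less than 0.1 on the log2 scale.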
